A study of Mus musculus with 20 samples.

Results

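The genes of cholesterol and fatty acid synthesis were followed one by one in livers after knockdown of HuR. A fixed list of 40 symbols, in which CYP51A1 and Cyp51 name the human and the mouse form of 1 gene, was matched to the gene names of each deposited table, ignoring case. All 39 genes were found among the 60607 genes of the human table and among the 55335 genes of the mouse table. They comprise 18 genes of the sterol branch, 13 of the fatty acid and triglyceride branch, 7 regulators and 1 gene of phospholipid synthesis. Humanized mice are TK-NOG mice, immune-deficient animals with a herpes simplex thymidine kinase transgene driven by the mouse albumin promoter. Ganciclovir (25 mg/kg, at 8 to 9 weeks of age) removed the host hepatocytes, and 1000000 cryopreserved primary human hepatocytes were then given into the spleen. Animals with more than 0.5 mg/ml human albumin in serum 8 to 12 weeks after transplantation were used, so their livers are chimeric, and their table holds human genes only. WT mice were male C57BL/6, bought at 8 weeks of age and acclimatized for 10 to 14 days. All mice received an adenovirus intravenously (2000000000 pfu per mouse): a virus with an shRNA against human HuR (4 humanized mice), one against mouse HuR (6 WT mice), or the LacZ control virus (4 humanized and 6 WT mice). Livers were taken on day 7 after a 4 h fast. The samples are numbered livers within each group, as many as the mice the study gives per group. The number of hepatocyte donors is not given in the sources used here.

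Hepatocytes make sterols from acetyl-CoA through mevalonate, squalene and lanosterol, and make fatty acids from cytosolic citrate. Sterol regulatory element-binding proteins (SREBPs, from SREBF1 and SREBF2) turn on both routes: they are carried by SCAP to the Golgi for cleavage, and INSIG1 and INSIG2 hold SCAP back when sterols are plentiful. HuR, encoded by ELAVL1, is an RNA-binding protein that binds AU-rich and U-rich stretches of mRNA and acts on mRNA stability and translation. In whole-liver RNA, fewer cells of a type and less RNA per cell cannot be told apart.

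Levels are given as TPM, the deposited unit, which scales reads by gene length and by the total of the library, and each comparison was made as a difference of log2(TPM + 1) between HuR knockdown (HuR KD) and LacZ, fitted with limma on all genes of a table with a mean of at least 1 TPM. The recovered reads per liver ranged from 1518280 to 10938815 in the humanized set and from 1346478 to 42466841 in the WT set. The genes they cover held 31.95 to 39.66% of the TPM in humanized and 94.18 to 95.95% in WT livers. ELAVL1 mRNA was 2.37 to 4.05 TPM in the HuR KD and 4.77 to 6.17 TPM in the LacZ humanized livers (log2 fold change −0.59, SE 0.17, adjusted p = 0.214 from limma). Elavl1 mRNA was 3.72 to 5.62 TPM against 8.58 to 10.7 TPM in WT livers (−0.83, SE 0.09, adjusted p = 0.00105 from limma). In both sets all knockdown livers lay below all controls. Hepatocyte markers were present in every liver, with 10 of 10 human markers expressed at a summed 42210 to 92670 TPM. Of 10 human macrophage and Kupffer cell markers, 6 were at 0 in all humanized livers, including C1QA, MARCO and VSIG4, and the list summed to 3.59 TPM or less. In WT livers the macrophage and Kupffer cell list summed to 273.7 to 509.2 TPM with HuR KD and to 434.5 to 584.3 TPM with LacZ, and 5 of its 10 genes passed the test. Of the markers tested in humanized livers, 2 of 4 cholangiocyte and 1 of 2 stellate cell markers were called. The 5 listed cholangiocyte markers summed to 5.26 to 29.4 TPM with HuR KD and 11.5 to 44.4 TPM with LacZ. Of those tested in WT livers, 2 of 7 T and NK cell, 2 of 7 stellate cell, 1 of 7 endothelial and 1 of 5 erythroid markers were called. Of all genes tested, 11.5% were called in humanized and 16% in WT livers. The part of these cells in the results below was not tested.

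Some livers stood apart from the rest of their set over all genes. Among the humanized livers, HuR KD 4 and LacZ 2 were more like each other (r = 0.965 across genes) than any of the other livers were to their nearest neighbor (r = 0.901 to 0.931). They also had the most reads (10938815 and 10412764, against 1518280 to 4961325) and the lowest summed hepatocyte markers of their groups (42210 and 45380 TPM). Among the WT livers, HuR KD 6 and LacZ 2 had a median r of 0.956 and 0.921 with the other livers, against 0.981 to 0.984 for the rest, and the fewest reads (12237817 and 1346478). Counts of called genes are given with and without these livers.

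Genes were called at an unadjusted limma p under 0.05. Exact permutation tests, all two-sided, are given beside the adjusted p, and cannot go below 0.0286 with 4 against 4 livers or below 0.00216 with 6 against 6. In humanized livers 36 of the 39 genes passed the filter on TPM, and 8 were called, with ETNK2, AGPAT2, FASN and MLXIPL raised and LPIN1, SLC25A1, LPIN2 and INSIG2 lowered. Of all 12738 human genes tested, 11.5% were called, 3.6% raised and 7.87% lowered. ETNK2 was the only one of the 36 with an adjusted p under 0.05, which 0.212% of all genes reached. Its adjusted p ranged from 0.00596 to 0.178 over 19 alternatives of the limma fit and missed 0.05 under 10 of them, among these the fits without any 1 liver other than LacZ 2. The groups of 2 genes did not overlap, with HuR KD above LacZ in ETNK2 and AGPAT2 and below it in 0, against 7.16% of all genes in either direction (2.13% above and 5.03% below). The direction of calls depended on the scaling of the libraries, since median-of-ratios factors gave 7 raised genes and 1 lowered gene (NR1H3, PMVK and SCAP joined the raised genes, and LPIN1 was the lowered one), and quantile normalization gave 6 and 3. Over all genes these scalings gave 6.44% raised and 6.59% lowered and 6.11% and 6.81%. Without HuR KD 4 and LacZ 2, 9 genes were called (15.7% of all genes tested), 3 raised and 6 lowered (4.48% and 11.2% of all genes).

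In WT livers 38 of the 39 genes passed the filter, and 5 were called, all of them raised: Acly, Pmvk, Acacb, Etnk2 and Scap. Of all 15090 mouse genes tested, 16% were called, 9.09% raised and 6.94% lowered, and 0.888% reached an adjusted p under 0.05, with 0 synthesis genes among them. The groups of 0 of the 38 genes were separate, against 2.49% of all genes (1.25% with HuR KD above and 1.23% below). A share of 5 in 38 lies below the background of 16%. With median-of-ratios factors 2 genes were called (16.2% of all genes tested), Acly raised and Hsd17b7 lowered. Without HuR KD 6 and LacZ 2, 4 genes were called (23.2% of all genes tested): Acly and Scap raised and Hsd17b7 and Mvd lowered. Etnk2 was thus called in both sets with all livers, and in humanized livers alone once the livers that stood apart were left out.

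**Figure D1:**
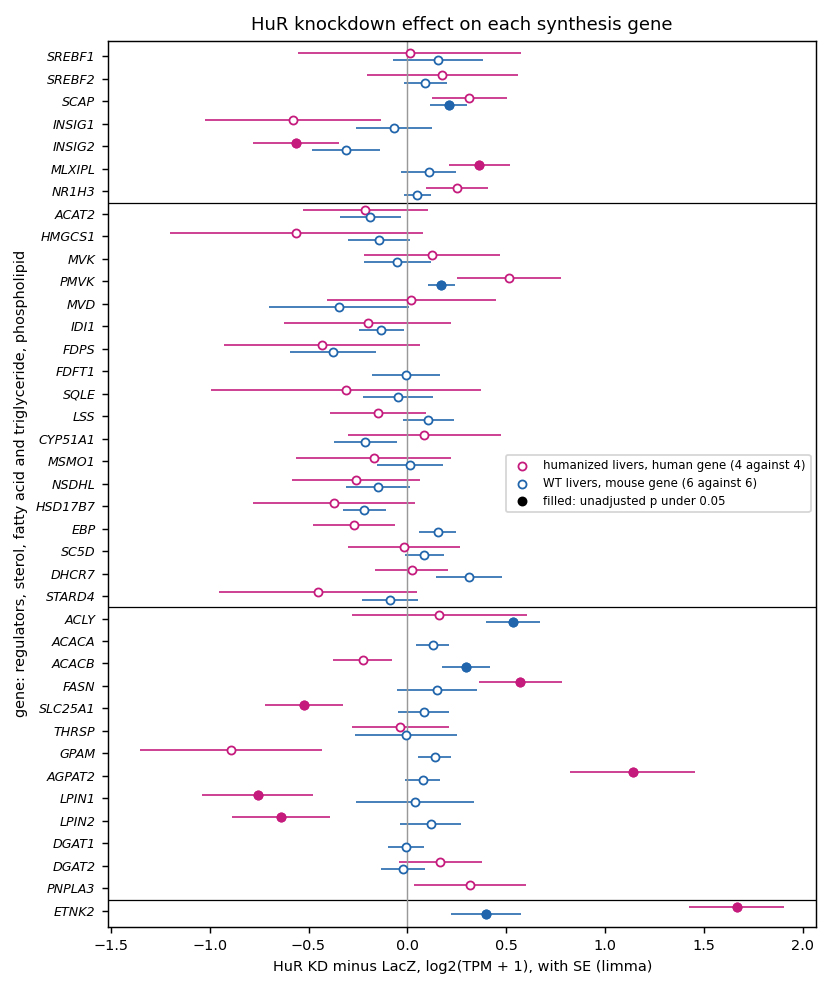
HuR knockdown effect on each gene, as the difference of log2(TPM + 1) between HuR KD and LacZ livers with its SE from limma, for human genes in humanized livers (4 against 4, magenta) and mouse genes in WT livers (6 against 6, blue); filled points have an unadjusted p under 0.05. The sterol genes have wide errors in humanized livers and no filled human point, while the filled points lie mostly in the fatty acid and triglyceride block and at ETNK2, the highest human value at 1.67.

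SREBF1, which encodes the SREBP isoforms that favor fatty acid synthesis, was 6.14, 8.88, 13.6 and 40.8 TPM in HuR KD livers 1 to 4 and 6.8, 26.2, 18 and 9.3 TPM in LacZ livers 1 to 4. The groups overlapped throughout (log2 fold change 0.01, SE 0.56). SREBF2, which encodes the isoform that favors sterol synthesis, was 21.6, 21.7, 22.2 and 9.62 TPM with HuR KD and 20.4, 7.13, 16.6 and 24.3 TPM with LacZ (0.18, SE 0.38). INSIG1, itself a well-known SREBP target, was 97.7, 93.5, 75.6 and 308 TPM with HuR KD and 137, 292, 124 and 216 TPM with LacZ. HuR KD livers 1 to 3 lay below all LacZ livers and HuR KD 4 lay above them (log2 fold change −0.58, SE 0.45, exact permutation p = 0.314). Without HuR KD 4 and LacZ 2 the INSIG1 value was −0.80 (SE 0.23, adjusted p = 0.155 from limma), and the gene was called.

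INSIG2, the second SCAP-retaining protein, was called lower in humanized livers. It was 14.9, 8.1, 9.07 and 14.4 TPM with HuR KD and 13.5, 17.1, 18.5 and 20.02 TPM with LacZ (log2 fold change −0.56, SE 0.22, adjusted p = 0.368 from limma, exact permutation p = 0.0857). MLXIPL, which encodes the glucose-responsive factor ChREBP, was called higher, at 27.8, 23.6, 29.1 and 19.7 TPM against 17.0, 18.2, 19.5 and 21.6 TPM (0.36, SE 0.16, adjusted p = 0.418 from limma, exact permutation p = 0.0571). In both genes 1 liver or more of each group fell in the range of the other. SCAP (0.31, SE 0.19) and NR1H3, which encodes the oxysterol receptor LXRα (0.25, SE 0.16), did not pass the threshold.

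Against 16% of all mouse genes tested, 1 of the 7 mouse regulators was called, Scap. It was 53.6 to 78.9 TPM with HuR KD (median 55.6) and 44.7 to 55.9 TPM with LacZ (median 51.6), with a log2 fold change of 0.21 (SE 0.10, adjusted p = 0.312 from limma, exact permutation p = 0.039). The call was lost under 14 of 22 alternatives. The highest of its values was HuR KD 6, at 78.9 TPM, while the other 5 HuR KD livers lay between 53.6 and 57.4 TPM. Srebf1 ranged from 14.2 to 29.1 TPM (median 22.5) with HuR KD and from 11.5 to 29.8 TPM (median 20.2) with LacZ. Srebf2 ranged from 11.6 to 17.3 TPM (median 13.3) and from 11.3 to 16.5 TPM (median 11.9). Insig1 ranged from 82.7 to 150.2 TPM (median 91.5) and from 71.9 to 147 TPM (median 115). The groups of each of these 3 genes overlapped, with log2 fold changes of 0.15 (SE 0.23), 0.09 (SE 0.11) and −0.07 (SE 0.19). Insig2 had a log2 fold change of −0.31 (SE 0.17, exact permutation p = 0.126). All 7 regulators had log2 fold changes of the same sign in the 2 sets, 5 higher and 2 lower with HuR KD, although only INSIG2 and MLXIPL in humanized livers and Scap in WT livers were called. The share of all genes with the same sign in both sets was not computed, so this count is not read as a trait of the regulators. The humanized SREBF1 value turned negative without HuR KD 4 (−0.50), LacZ 1 (−0.28), LacZ 4 (−0.15) or both HuR KD 4 and LacZ 2 (−0.19), and that of SREBF2 without LacZ 2 (−0.17), which leaves 6 of 7 in each case. The WT Insig1 value turned positive without LacZ 3 (0.03).

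In humanized livers 17 of the 18 sterol genes passed the filter and 0 were called, against 11.5% of all human genes tested. PMVK, phosphomevalonate kinase, was the closest to the threshold (0.51, SE 0.26, exact permutation p = 0.0571). The log2 fold changes of the 17 genes ran from −0.56 (HMGCS1) to 0.51 (PMVK), 5 positive and 12 negative, with a median of −0.20 against −0.05 over all genes tested. Voom on recovered reads also gave 0 called sterol genes, whereas median-of-ratios factors, quantile normalization and array weights each gave 1, PMVK, as did leaving out LacZ 2. These settings called 12.4%, 13.0%, 12.9%, 13.4% and 15.3% of all human genes tested, in the same order. The median was 0.09 without HuR KD 4, −0.43 without LacZ 2, 0.02 without LacZ 4 and −0.24 without both HuR KD 4 and LacZ 2, so its sign changed with single livers. The SE of the sterol genes ranged from 0.18 to 0.68 with a median of 0.39, against a median of 0.25 for the fatty acid and triglyceride genes.

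HMGCS1, the cytosolic HMG-CoA synthase at the entry to mevalonate, was 134, 87.3, 62.6 and 28.9 TPM in HuR KD livers 1 to 4 and 179, 32.8, 73.5 and 237 TPM in LacZ livers 1 to 4 (log2 fold change −0.56, SE 0.64, exact permutation p = 0.486). SQLE, squalene epoxidase, was 72.1, 66.3, 50.2 and 11.4 TPM with HuR KD and 82.8, 15.7, 49.8 and 103 TPM with LacZ (−0.31, SE 0.68, exact permutation p = 0.6). In both genes HuR KD 4 and LacZ 2 were the lowest livers, and HuR KD livers 1 to 3 lay below LacZ 1 and LacZ 4, the highest livers. The steps from acetyl-CoA to farnesyl diphosphate (ACAT2, HMGCS1, MVK, PMVK, MVD, IDI1 and FDPS) and from lanosterol to cholesterol (CYP51A1, MSMO1, NSDHL, HSD17B7, EBP, SC5D and DHCR7) each held log2 fold changes of both signs, from −0.56 to 0.51 and from −0.37 to 0.09. The first group builds the mevalonate-derived isoprenoid chain and the second reshapes the sterol ring of lanosterol, which LSS, lanosterol synthase, closes (−0.15, SE 0.24). STARD4, a sterol transport protein, had a log2 fold change of −0.45 (SE 0.50). CYP51A1, the lanosterol demethylase, was 4.57 to 14.7 TPM, and its pseudogenes CYP51A1P1 and CYP51A1P2 were listed at 1.86 to 15.5 and 1.62 to 8.18 TPM, so reads may be split between them and its value is uncertain.

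FDFT1, squalene synthase, was listed near 0 in humanized livers and was not tested, with 0.617, 2.8, 0.332 and 0.954 TPM with HuR KD and 0.693, 0.42, 0.936 and 0.59 TPM with LacZ. The neighboring steps were well expressed in the same livers, FDPS at 23.04 to 126 TPM and SQLE at 11.4 to 103 TPM, and the mouse gene Fdft1 was at 30.0 to 65.1 TPM. A listing near 0 in these data can be a failed estimate, and FDFT1 is not read as absent.

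In WT livers all 18 sterol genes were tested and 1 was called, against 16% of all mouse genes tested. Pmvk was 24.3 to 32.2 TPM with HuR KD (median 26.5) and 22.7 to 25.1 TPM with LacZ (median 23.8), a log2 fold change of 0.17 (SE 0.07, adjusted p = 0.242 from limma, exact permutation p = 0.013). The groups overlapped by 2 HuR KD livers (24.3 and 24.6 TPM), and 6 of 22 alternatives lost the call. The 18 genes had a median of −0.07 against 0.03 over all genes, 6 positive and 12 negative. Without HuR KD 6 and LacZ 2, 0 rose and 2 fell (Hsd17b7 and Mvd), against 15.4% and 7.8% of all mouse genes. Hmgcs1 was 66.7 to 103 TPM with HuR KD (median 82.0) and 62.7 to 124 TPM with LacZ (median 96.2), and Sqle was 11.4 to 17.0 TPM (median 12.9) and 10.7 to 24.5 TPM (median 12.4). Neither differed beyond its error (−0.14, SE 0.16, and −0.05, SE 0.18). The mouse Acat2, at 14.3 to 25.99 TPM, has the close paralog Acat3 at 105.9 to 150.8 TPM, and reads of the 2 genes may be split.

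The sterol genes varied together from liver to liver. In humanized livers 15 of 17 had both HuR KD 4 and LacZ 2 below all the other livers, which held for 13.2% of all human genes tested. The exceptions were PMVK and DHCR7. The median sterol gene was lower by 0.89 in HuR KD 4 and by 0.71 in LacZ 2 than its mean over the 8 livers on the log2 scale, and higher by 0.78 in LacZ 4. SREBF2 was likewise lowest in these livers, at 9.62 and 7.13 TPM against 16.6 to 24.3 TPM in the others. INSIG1 and SREBF1 went the other way: INSIG1 was 308 and 292 TPM in HuR KD 4 and LacZ 2 against 75.6 to 216 TPM in the other livers, and SREBF1 was 40.8 and 26.2 TPM against 6.14 to 18 TPM. Both livers lay above all others in 7.14% of human genes. One of these livers belongs to each treatment group, so this pattern added spread to both groups.

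In WT livers the livers that stood apart were high rather than low. HuR KD 6 and LacZ 2 both lay above all other livers in 7 of 18 sterol genes (Fdft1, Hmgcs1, Lss, Mvd, Mvk, Nsdhl and Sqle), in 6 of 12 fatty acid and triglyceride genes, and in 3 of 7 regulators (Nr1h3, Srebf1 and Srebf2), against 7.0% of all mouse genes. They both lay below all others in 0 synthesis genes, against 16.8% of all genes. Mvd, mevalonate diphosphate decarboxylase, was 17.1 TPM in HuR KD 6 and 15.5 TPM in LacZ 2 against 3.53 to 11.9 TPM in the other 10 livers. The median SD of log2(TPM + 1) within groups was 0.65 for the sterol genes and 0.27 for all genes with a mean of at least 5 TPM in humanized livers, and 0.30 and 0.18 in WT livers. The pair had the most reads in the humanized set and the fewest in the WT set. Summed hepatocyte markers were lowest in the humanized pair, while in the WT set they were 88460 TPM in HuR KD 6 and 83960 TPM in LacZ 2 against 71300 to 83900 TPM in the others. Their part in this pattern was not tested.

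**Figure D2:**
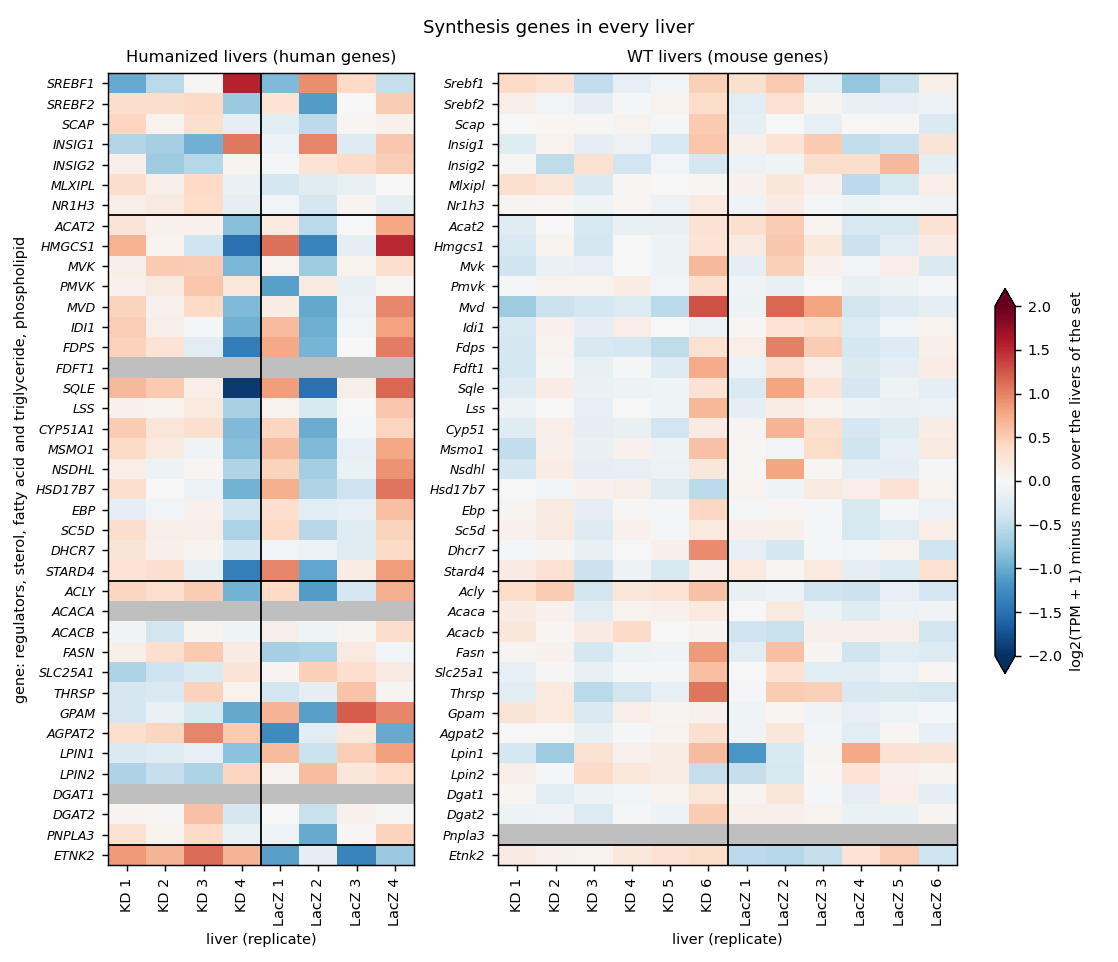
Synthesis genes in every liver, as log2(TPM + 1) minus the mean of the gene over the livers of the set (red higher, blue lower; gray genes did not pass the filter on TPM); blocks from top to bottom are regulators, sterol, fatty acid and triglyceride, and phospholipid. The columns of HuR KD 4 and LacZ 2 are the lowest of the set in 15 of the 17 human sterol genes and red at SREBF1 and INSIG1, and the ETNK2 row is red in all 4 HuR KD livers.

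**Figure D3:**
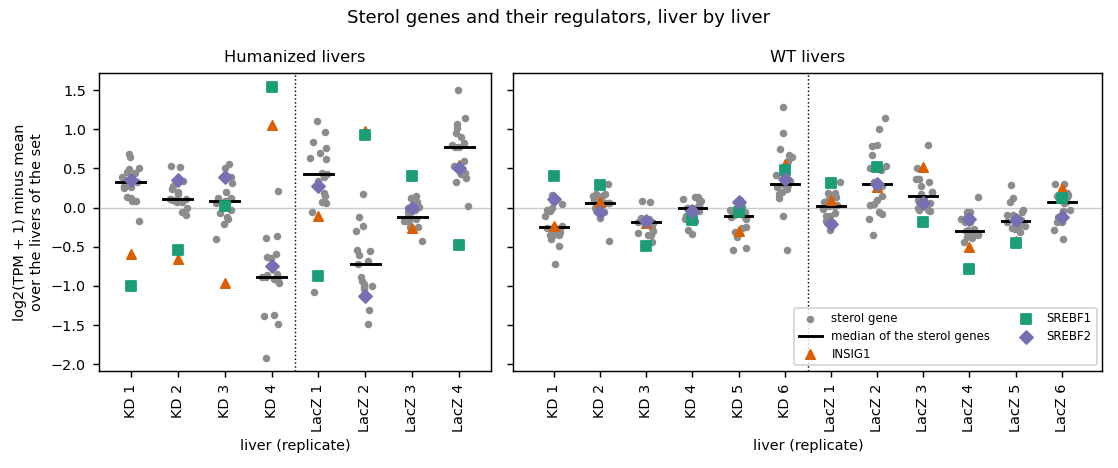
Sterol genes (gray points, 17 human and 18 mouse) and their median (black bar) in each liver, with INSIG1, SREBF1 and SREBF2 marked, as log2(TPM + 1) minus the mean of the gene over the livers of the set. The median is −0.89 in HuR KD 4 and −0.71 in LacZ 2 of the humanized set, where INSIG1 and SREBF1 lie above 0.

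The bases upstream of the mouse genes were searched for 3 elements tied to this pathway, on both strands: the sterol regulatory element bound by SREBPs (TCACNCCAC), the box bound by NF-Y, a partner of SREBPs (CCAAT), and the E-box core (CACGTG). Human promoters were not searched. Whether these elements have a part in the shared movement of the sterol genes between livers was not tested. RefSeq promoter windows (GRCm38.p6) were at hand for 33 of the 39 mouse genes, in 46 windows. Within 250 bases before the start, CCAAT was in 13 of 17 windows of sterol genes (76.5%), 7 of 14 of fatty acid and triglyceride genes (50%), 6 of 14 of regulators (42.9%) and 33.8% of all 32851 windows. TCACNCCAC was in 2 of the 46 windows (Hmgcs1 and Mlxipl), against 1.05% of all windows. By branch these were 1 of 17 windows of sterol genes, 0 of 14 of fatty acid and triglyceride genes and 1 of 14 of regulators. CACGTG was in 8 windows (17.4%), against 6.02%. It was in 3 of 17 windows of sterol genes (17.6%), 2 of 14 of fatty acid and triglyceride genes (14.3%) and 3 of 14 of regulators (21.4%). The 3 sterol genes shown hold several of these letters within a short stretch, Insig1 is 1 of the 2 regulators, with Srebf1, whose human forms went the other way in humanized livers, and Etnk2 is the gene called in both sets. Each is the 150 bases, 5′ to 3′, that end before both the RefSeq and the GENCODE start, with matches in capitals.
Hmgcs1 (chr13:119690201-119690350, plus strand): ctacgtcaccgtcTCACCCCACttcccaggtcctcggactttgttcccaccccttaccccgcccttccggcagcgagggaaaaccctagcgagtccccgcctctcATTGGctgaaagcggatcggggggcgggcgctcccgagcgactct
Hsd17b7 (chr1:169969242-169969391, minus strand): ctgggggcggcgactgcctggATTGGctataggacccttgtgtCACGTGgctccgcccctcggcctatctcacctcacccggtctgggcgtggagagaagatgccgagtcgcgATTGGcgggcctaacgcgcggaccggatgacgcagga
Sc5d (chr9:42264301-42264450, minus strand): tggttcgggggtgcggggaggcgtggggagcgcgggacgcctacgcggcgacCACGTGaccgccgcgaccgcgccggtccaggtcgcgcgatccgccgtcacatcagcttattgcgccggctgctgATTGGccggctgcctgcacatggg
Insig1 (chr5:28071213-28071362, plus strand): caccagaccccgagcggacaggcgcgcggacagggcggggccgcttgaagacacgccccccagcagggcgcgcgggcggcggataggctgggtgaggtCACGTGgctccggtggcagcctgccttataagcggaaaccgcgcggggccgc
Etnk2 (chr1:133363422-133363571, plus strand): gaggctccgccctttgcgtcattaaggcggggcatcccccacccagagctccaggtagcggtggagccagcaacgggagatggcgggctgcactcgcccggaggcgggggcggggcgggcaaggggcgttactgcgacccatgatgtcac
In Hmgcs1 the sterol regulatory element starts 137 bases and the CCAAT box, read as ATTGG on this strand, 45 bases before the RefSeq start, and in Insig1 the E-box core starts 101 bases before it. Insig1 also had CCAAT within the 250 bases searched, outside the stretch shown. The stretch of Etnk2 holds 0 of the 3 elements, which says only that these letters are not in it.

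ACLY, ATP citrate lyase, splits citrate into cytosolic acetyl-CoA at the entry to both branches. Its mouse gene, Acly (ENSMUSG00000020917.17, chromosome 11 from 100476353 to 100528000, minus strand, GRCm38), was 63.8 to 124 TPM with HuR KD (median 103) and 60.7 to 75.5 TPM with LacZ (median 69.2). All HuR KD livers but replicate 3, at 63.8 TPM, lay above all LacZ livers (log2 fold change 0.54, SE 0.14, adjusted p = 0.0818 from limma, exact permutation p = 0.0108). The call held under all 22 alternatives, from 0.47 to 0.66. Human ACLY was 37.5, 35.4, 39.7 and 13.9 TPM with HuR KD and 37.0, 12.3, 21.9 and 46.3 TPM with LacZ, with HuR KD 4 and LacZ 2 again lowest (0.16, SE 0.44).

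FASN, fatty acid synthase, was called higher in humanized livers, at 71.3, 83.4, 94.5 and 73.8 TPM with HuR KD and 41.2, 42.6, 74.4 and 63.4 TPM with LacZ. LacZ 3 lay within the range of the HuR KD livers and the other 3 LacZ livers below it (log2 fold change 0.57, SE 0.21, adjusted p = 0.335 from limma, exact permutation p = 0.0857). Without HuR KD 4 and LacZ 2 the difference was 0.50 (SE 0.23, adjusted p = 0.349 from limma) and the call was lost. Mouse Fasn was 29.7 to 69.8 TPM with HuR KD (median 38.0) and 28.8 to 58.5 TPM with LacZ (median 32.8), and the groups overlapped (0.15, SE 0.20). The highest liver of each group was HuR KD 6 and LacZ 2.

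SLC25A1, the mitochondrial carrier that exports citrate, was called lower in humanized livers. It was 52.3, 60.4, 65.9 and 95.9 TPM with HuR KD and 83.5, 112, 102 and 90.8 TPM with LacZ, so that HuR KD livers 1 to 3 lay below all LacZ livers and HuR KD 4 among them (log2 fold change −0.52, SE 0.20, adjusted p = 0.35 from limma, exact permutation p = 0.0857). Mouse Slc25a1 had a log2 fold change of 0.08 (SE 0.13). THRSP, a lipogenic nuclear protein, had values of −0.04 (SE 0.24) and −0.01 (SE 0.26) in the 2 sets.

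The acetyl-CoA carboxylases make malonyl-CoA, ACACA mainly for synthesis and ACACB mainly at mitochondria. ACACA was listed at 0, 0.0744, 0.0829 and 0.104 TPM with HuR KD and at 0.118, 0.0699, 0.083 and 0.518 TPM with LacZ in humanized livers and was not tested, although FASN, the next enzyme, was at 41.2 to 94.5 TPM. Mouse Acaca was 11.2 to 15.3 TPM with HuR KD (median 14.1) and 11.02 to 15.1 TPM with LacZ (median 12.4), a log2 fold change of 0.13 (SE 0.09, exact permutation p = 0.154). Mouse Acacb was called higher, at 19.3 to 25.2 TPM with HuR KD (median 20.8) and 13.7 to 20.9 TPM with LacZ (median 17.6). The LacZ livers fell into 3 at 13.7 to 14.7 TPM and 3 at 20.5 to 20.9 TPM, the latter within the HuR KD range (0.30, SE 0.12, adjusted p = 0.258 from limma, exact permutation p = 0.0693), and 10 of 22 alternatives lost the call. Human ACACB had a log2 fold change of −0.23 (SE 0.15).

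AGPAT2 (ENSG00000169692.13), which acylates lysophosphatidic acid to phosphatidic acid, was called higher in humanized livers. It was 55.3, 59.2, 86.97 and 63.1 TPM with HuR KD and 17.6, 37.2, 50.8 and 21.1 TPM with LacZ, so that the groups did not overlap, which 2.13% of human genes showed in this direction (log2 fold change 1.14, SE 0.32, adjusted p = 0.199 from limma, exact permutation p = 0.0286). The call held under all 19 alternatives, from 0.91 to 1.40. Mouse Agpat2 was 163 to 227 TPM with HuR KD (median 182) and 157 to 212 TPM with LacZ (median 174), and the groups overlapped (0.08, SE 0.09).

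LPIN1 and LPIN2, phosphatidic acid phosphatases that make diacylglycerol, were called lower in humanized livers. LPIN1 was 3.24, 3.35, 3.59 and 1.92 TPM with HuR KD and 7.02, 2.82, 6.24 and 8.12 TPM with LacZ (log2 fold change −0.76, SE 0.28, adjusted p = 0.343 from limma, exact permutation p = 0.114). LPIN2 was 24.8, 27.5, 24.4 and 52.0 TPM with HuR KD and 40.1, 59.4, 45.2 and 50.0 TPM with LacZ (−0.64, SE 0.25, adjusted p = 0.363 from limma, exact permutation p = 0.114). LacZ 2 was the exception among controls for LPIN1 and HuR KD 4 the exception among knockdown livers for LPIN2. Without both livers, a choice made after the values were seen, the log2 fold changes were −0.88 and −0.79 (adjusted p = 0.0504 from limma in both). Mouse Lpin1 and Lpin2 had log2 fold changes of 0.04 (SE 0.30) and 0.12 (SE 0.15).

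GPAM, the mitochondrial acyltransferase of the first step of glycerolipid synthesis, was not called with all livers (log2 fold change −0.89, SE 0.46, exact permutation p = 0.143), and is singled out here after its values were seen. It was 109, 126, 112 and 67.8 TPM with HuR KD and 222, 64.5, 322 and 273 TPM with LacZ, with LacZ 2 below every HuR KD liver and the other 3 LacZ livers above all of them. Without HuR KD 4 and LacZ 2 its log2 fold change was −1.21 (SE 0.17, adjusted p = 0.0238 from limma). DGAT2, which adds the last acyl chain, and PNPLA3, a triglyceride-remodeling lipase, did not pass the threshold in humanized livers (0.17, SE 0.21, and 0.32, SE 0.28). DGAT1 was listed at 0, 0.352, 0 and 0.546 TPM with HuR KD and at 0 in all 4 LacZ livers, and mouse Pnpla3 at 0 to 0.649 TPM, and neither was tested. Mouse Gpam, Dgat1 and Dgat2 had log2 fold changes of 0.14 (SE 0.08), −0.01 (SE 0.09) and −0.02 (SE 0.11).

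Over the branch, 11 human fatty acid and triglyceride genes were tested, of which 2 rose and 3 fell, against 3.6% and 7.87% of all human genes, with a median of −0.04 against −0.05 over all genes. With median-of-ratios factors 2 rose and 1 fell (median 0.05), against 6.44% and 6.59% of all human genes. Without HuR KD 4 and LacZ 2, 1 rose and 4 fell (median −0.14), against 4.48% and 11.2%. In WT livers 12 were tested, of which 2 rose and 0 fell, against 9.09% and 6.94% of all mouse genes, with a median of 0.10 (0.01 without HuR KD 6) against 0.03 over all genes. Without HuR KD 6 and LacZ 2, 1 rose and 0 fell, against 15.4% and 7.8% of all mouse genes.

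ETNK2 (ENSG00000143845.15), an ethanolamine kinase at the start of phosphatidylethanolamine synthesis, had the largest difference among the 36 human genes. It was 47.9, 42.2, 57.8 and 42.0 TPM with HuR KD and 11.7, 22.7, 9.76 and 15.2 TPM with LacZ, so that every HuR KD liver exceeded every LacZ liver (exact permutation p = 0.0286). HuR KD raised the mean to 320% of the LacZ mean (log2 fold change 1.67, SE 0.24, adjusted p = 0.0455 from limma), and the fold change was 1.93 without HuR KD 4 and LacZ 2. Mouse Etnk2 (ENSMUSG00000070644.13, chromosome 1 from 133363572 to 133380336, plus strand, GRCm38) was called higher as well. It was 296 to 368 TPM with HuR KD (median 322) and 190 to 399 TPM with LacZ (median 209), where 4 LacZ livers lay at 190 to 214 TPM and LacZ 4 and LacZ 5 at 343 and 399 TPM (log2 fold change 0.40, SE 0.18, adjusted p = 0.296 from limma, exact permutation p = 0.0606). The mouse call was lost under 13 of 22 alternatives.

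**Figure D4:**
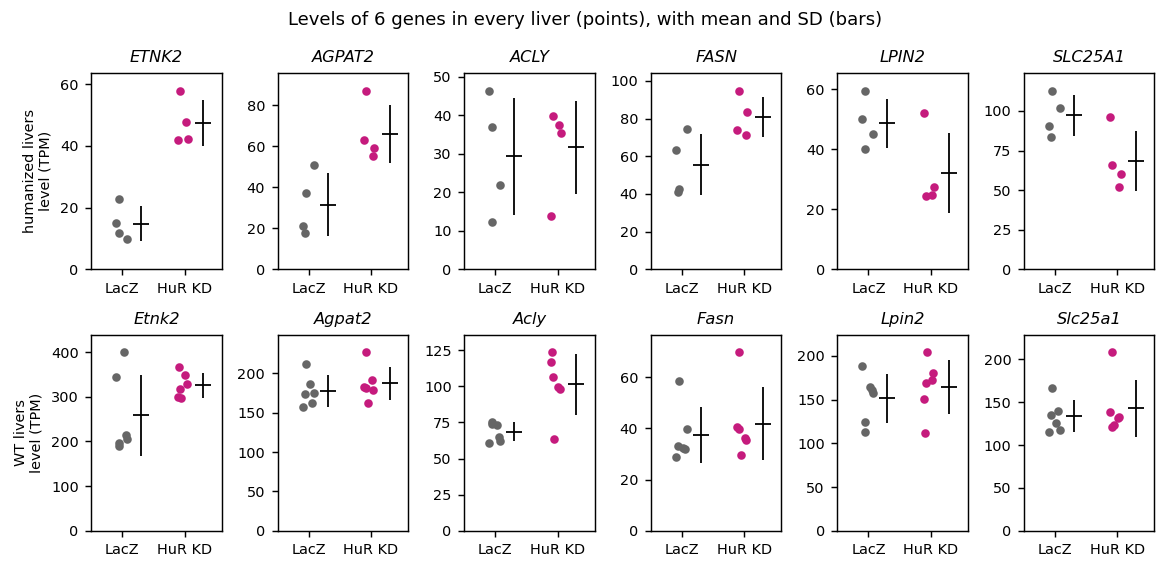
Levels of 6 genes in every liver (points, in TPM), with the mean and SD of each group (bars), for LacZ (gray) and HuR KD (magenta) livers of the humanized (top) and WT (bottom) sets; each axis starts at 0. ETNK2 and AGPAT2 do not overlap between the groups in humanized livers, and in WT livers Acly is above all controls in all HuR KD livers but 1, at 63.8 TPM.

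Whether a gene responded differently in the 2 sets was tested as the difference of the 2 log2 fold changes in a joint limma fit over 8203 genes paired by symbol, of which 5.01% had an adjusted p under 0.05 and 19.7% an unadjusted one. Among the 35 pairs of synthesis genes 2 did: ETNK2 (humanized minus WT 1.27, SE 0.29, adjusted p = 0.0144 from limma) and AGPAT2 (1.06, SE 0.29, adjusted p = 0.0339 from limma). ETNK2 passed under all 24 alternatives run, while AGPAT2 was lost when the spread of each set was estimated apart and when any of 12 of the 20 livers was left out. An unadjusted p under 0.05 was also reached by ACACB (−0.52), LPIN2 (−0.76), SLC25A1 (−0.60) and GPAM (−1.03), all 4 lower in humanized and higher in WT livers with HuR KD. Without HuR KD 4 and LacZ 2 of the humanized set, GPAM (−1.35, adjusted p = 3.82e-05), LPIN2 (−0.91, adjusted p = 0.0148) and SLC25A1 (−0.70, adjusted p = 0.0344) passed the adjusted threshold of the joint limma fit with ETNK2 and AGPAT2. The share of all pairs passing without these livers is not given here, and the spread of each set was not estimated apart without them. In the humanized limma fit alone without them, adjusted p was 0.0114 for ETNK2 and 0.0238 for GPAM. It was 0.0504 for LPIN2, 0.102 for SLC25A1 and 0.171 for AGPAT2. By direction alone and with all livers, 10 of 17 sterol pairs, 7 of 7 regulator pairs and 4 of 10 fatty acid and triglyceride pairs had the same sign in both sets. The share of all 8203 pairs with the same sign was not computed. Species, shRNA, host strain, age, and ganciclovir with transplantation all differ between the sets and cannot be told apart. The humanized table also holds only the human genes of chimeric livers.

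The levels of the genes per length in control livers show which steps each table holds most mRNA of. In humanized LacZ livers the tested genes ran from 4.16 ± 1.28 TPM (SD, n = 4) for LSS, lanosterol synthase, to 255.9 ± 120.1 TPM for MSMO1, the sterol C4-methyl oxidase, followed by GPAM (220.2 ± 111.6 TPM) and INSIG1 (192.2 ± 78.1 TPM). These 3 did not differ beyond their spread. In WT LacZ livers they ran from 7.92 ± 1.40 TPM (SD, n = 6) for Idi1 to 310.3 ± 24.8 TPM for Dgat2, followed by Insig2 (270.2 ± 65.1 TPM) and Etnk2 (258.2 ± 89.9 TPM), which again lay within each other's spread. ETNK2, at 14.9 ± 5.69 TPM in humanized controls, was below the median of 28.1 TPM over the tested genes of its table, whereas Etnk2 was above the median of 41.1 TPM of the mouse table. The sterol genes had a median of 28.7 TPM and the fatty acid and triglyceride genes one of 38.7 TPM in humanized controls, and 17.7 and 56.7 TPM in WT controls.

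HuR binds AU-rich stretches, so the longest annotated 3′ untranslated region of each mouse gene (GENCODE M21, GRCm38) was searched on the sense strand for the AU-rich heptamer TATTTAT, a search added after the fold changes were seen. It was in 9 of the 39 synthesis genes (23.1%) and in 27.6% of all 21021 protein-coding genes with such a region. The median length was 947 bases for the synthesis genes and 961 bases for all genes, and genes with the heptamer have longer regions (2094 against 666 bases over all genes). It was in 3 of 7 regulators (Insig1, Insig2 and Srebf1), 4 of 13 fatty acid and triglyceride genes (Acaca, Dgat2, Fasn and Lpin1) and 2 of 18 sterol genes (Hsd17b7 and Sc5d). Of the 5 mouse genes called with HuR KD, Acly, Pmvk, Acacb, Etnk2 and Scap, 0 held it. The share among all called mouse genes was not computed, and U-rich stretches were not searched. Some of the sites of regulators and that of Fasn are shown, 25 bases each with the heptamer in capitals.
Insig1 (chr5:28077226-28077250, plus strand): tagtaagaaTATTTATccagaatta
Insig1 (chr5:28077800-28077824, plus strand): tctcgtaaaTATTTATtttgtaatt
Insig2 (chr1:121304507-121304531, minus strand): acactactcTATTTATtattctgtc
Srebf1 (chr11:60199590-60199614, minus strand): aaatgaaatTATTTATaacttcagt
Fasn (chr11:120807520-120807544, minus strand): aaattctcaTATTTATtgcattgct
A match describes the letters only, and no binding was measured here.

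Further genes of the same pathways were taken from lists fixed beside the synthesis genes. Of 20 other sterol genes (uptake, transport and SREBP processing), 19 were tested in humanized livers, with 0 raised and 1 lowered (MBTPS1, a protease that cleaves SREBPs) and a median of 0.10. In WT livers 19 were tested, with 3 raised (Erlin1, Erlin2 and Npc1) and 2 lowered (Mbtps2 and Npc2) and a median of −0.02. Of 29 other fatty acid and triglyceride genes, 24 were tested in humanized livers, with 1 raised (RXRA) and 1 lowered (SCD, stearoyl-CoA desaturase) and a median of 0.01, and 25 in WT livers, with 2 raised (Fads1 and Mid1ip1), 2 lowered (Acss2 and Gpat3) and a median of 0.09. Of 16 other genes of phospholipid head groups, 12 were tested in humanized livers, with 0 raised and 1 lowered (CDS2), and 14 in WT livers, with 1 raised (Ptdss2) and 3 lowered (Cept1, Chpt1 and Ptdss1). Their log2 fold changes ran from −1.08 to 0.57 in humanized and from −0.57 to 0.58 in WT livers. Across these lists, 1 gene in WT livers and 0 in humanized livers reached an adjusted p under 0.05 from limma, and 4 of 55 humanized genes (7.27%) and 13 of 58 WT genes (22.4%) an unadjusted one, against 11.5% and 16% of all genes. Without the livers that stood apart, 9 of 55 humanized genes (16.4%) and 19 of 58 WT genes (32.8%) were called, against 15.7% and 23.2% of all genes.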

How the data were processed

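Total RNA from livers was sequenced with a strand-specific protocol. As the authors describe, trimmed reads were aligned with HISAT2, those of WT livers to the mouse genome and those of humanized livers to a joint human and mouse index, and assigned to GENCODE genes with featureCounts. The TPM values analysed here were deposited by the authors in 1 table per set, with no column outside the labelled samples. The submitters' processing notes name the builds GRCh38 and mm10. How the TPM were computed from the reads is not given in the sources used here.

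In each table, genes with a mean of at least 1 TPM were tested on log2(TPM + 1) with limma (version 3.58.1 in R 4.3.3, empirical Bayes with a trend), HuR KD against LacZ, with Benjamini-Hochberg adjustment over all genes tested. Fold changes on this scale understate those of low genes. The joint fit held both tables, and its difference of log2 fold changes was tested over genes paired by symbol. Exact permutation tests enumerated all 70 or 924 groupings of the livers on the log2 scale. Read numbers per liver were recovered from the steps of the TPM values (18698 of 18702 human and 25109 of 25110 mouse genes with values in at least 4 libraries) and served for depth and for voom. In humanized livers the genes without recovered reads held most of the TPM, and both uses leave them out. Simulated tables with known changes were used to test both the read recovery and the limma script.

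The synthesis genes, the other lists and the alternatives were chosen with earlier results of these data known. Values are given for every called gene, for SREBF1, SREBF2, INSIG1, HMGCS1, SQLE, FASN and ACACA, and for genes whose effect differed between the sets, and GPAM, DGAT1, FDFT1, Mvd and Pnpla3 were added after their values were seen. Mouse coordinates are GENCODE M21 on GRCm38, close to the M23 release the authors used. A human genome was not used here.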

Additional observations from a re-analysis of the deposited data

Results flagged for a closer look

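In 19 of 148 gene and group combinations looked at, 1 liver lay far from the rest of its group by Dixon's criterion, which chance alone gives in about 1 of 20. Of these, 4 were in HuR KD 4 of the humanized set, where ACLY (13.88 TPM) and SREBF2 (9.618 TPM) were low and LPIN2 (52.04 TPM) and INSIG1 (308.2 TPM) were high. A further 11 were in HuR KD 6 of the WT set, where every outlying value was high. They were Dgat2 at 434.8, Fasn at 69.75, Slc25a1 at 208.1 and Thrsp at 43.08 TPM in the fatty acid and triglyceride branch. They were Dhcr7 at 22.31, Fdft1 at 65.12, Lss at 14.45, Mvd at 17.08 and Mvk at 15.03 TPM in the sterol branch, and Insig1 at 150.2 and Scap at 78.86 TPM among the regulators. LacZ 2 of the WT set was high in Fasn (58.55 TPM), Nr1h3 (108.5 TPM) and Nsdhl (24.96 TPM), and HuR KD 3 of the WT set was low in Acaca (11.25 TPM). Of the 19 values, 18 fell in livers that stood apart from their set over all genes.

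The HuR knockdown effect differed between humanized and WT livers in ETNK2 by 1.269 and in AGPAT2 by 1.064 on the log2 scale, by the joint limma test of the difference.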

How the results depend on the processing

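With a Benjamini-Hochberg adjusted p in place of the unadjusted one, 1 gene was called in humanized livers and 0 in WT livers (limma; 8 and 5 at an unadjusted p under 0.05). Leaving out 1 liver gave 4 to 8 called genes in humanized livers, with 5 or fewer without any liver except HuR KD 4 and LacZ 2. It gave 2 to 8 in WT livers, with 2 without HuR KD 1, HuR KD 4 or LacZ 1, 3 without HuR KD 2, LacZ 3 or LacZ 6, and 8 without HuR KD 3. These fits called 8.57 to 15.3% of all human genes tested and 12.7 to 18.9% of all mouse genes tested. In WT livers median-of-ratios factors and quantile normalization gave 2 called genes each, voom on recovered reads 3 and array weights 10. Of all mouse genes tested, these settings called 16.2%, 17.3%, 19.3% and 27.9%, in the same order. The difference between the sets passed in 1 gene with the spread of each set estimated apart, in 1 to 4 genes with 1 liver left out (4 without humanized HuR KD 4) and in 5 without both humanized livers that stood apart, a choice made after seeing the data. The causes were not tested.

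Of 261 alternative values for the 13 called effects, 183 kept the call, 78 lost it and 0 changed sign. Called under every alternative, at an unadjusted p, were ETNK2 (1.502 to 1.934), AGPAT2 and Acly. The call was lost under 4 of 19 alternatives for FASN, 4 of 18 for LPIN1, 5 of 19 for INSIG2, 6 of 19 for SLC25A1 and 8 of 19 for LPIN2 and MLXIPL. Same-numbered livers deviated together with r from −0.249 to 0.137 in the humanized and from −0.142 to 0.206 in the WT set. Such low values cannot exclude that replicate numbers pair some livers. With a replicate block the median SE of the synthesis genes went from 0.3 to 0.298 in humanized and from 0.146 to 0.123 in WT livers. The fit with the replicate block called 7 genes in humanized livers, 3 raised and 4 lowered, against 3.23% and 7.76% of all human genes. It called 6 in WT livers, 4 raised and 2 lowered, against 8.03% and 6.83% of all mouse genes. In WT livers Fdps and Insig2 joined as lowered genes and Scap was lost. With 1 read worth more TPM in shallow livers, low genes are least precise in WT LacZ 2 (1346478 recovered reads) and in the humanized livers other than HuR KD 4 and LacZ 2 (1518280 to 4961325).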
